A study of Mus musculus with 16 samples.

Results

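The c-Jun N-terminal kinase (JNK) cascade was followed in dispersed mouse islet cells through 10 genes, taken by symbol from the 25105 genes measured. They were the JNK kinases Mapk8, Mapk9 and Mapk10, the MAP2 kinases Map2k4 and Map2k7, the MAP3 kinases Map3k5 and Map3k12, and the JNK-interacting protein (JIP) scaffolds Mapk8ip1, Mapk8ip2 and Mapk8ip3. The choice was by function, made with earlier results of these data known. RNA was sequenced from primary islet cells of adult Grp78 flox/flox mice, whose exact age the labels do not give, cultured for 72 h in 15 mM glucose. Every culture carried the floxed alleles of Grp78 (symbol Hspa5), and every culture received an adenovirus. Ad-LacZ expresses bacterial beta-galactosidase and served as the control, and Ad-Cre expresses Cre recombinase, which recombines the floxed alleles. Each virus was combined with the vehicle DMSO or with JNK-IN-8, a pan JNK inhibitor present from the start of the culture. Vehicle cultures are called Ad-LacZ and Ad-Cre below. Cultures with inhibitor are called Ad-LacZ + JNK inhibitor or, for the other virus, Ad-Cre + JNK inhibitor. The 16 libraries made 4 in each of these 4 groups, and each group held 1 culture from each preparation of islets (F1 and F2, M1 and M2 in the labels). The study used female and male mice, and F and M are read here as these sexes. Each sample title joins a pair of numbers with a plus sign while the methods of the study count single mice, so whether a preparation pooled animals is not settled here, and n counts preparations. Cre was not restricted to beta cells, the libraries were bulk RNA, and in such samples fewer cells of a type and less RNA per cell cannot be told apart.

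JNKs are the last kinases of a tiered relay. MAP3 kinases such as ASK1 (Map3k5) and DLK (Map3k12) phosphorylate the MAP2 kinases MKK4 (Map2k4) and MKK7 (Map2k7), which in turn phosphorylate JNK1 (Mapk8), JNK2 (Mapk9) and JNK3 (Mapk10). The JIP scaffolds hold members of these tiers together, and JIP1 is also known as islet-brain 1 for its abundance in islets and neurons. Active JNK phosphorylates c-Jun and other transcription factors, and in islets the cascade is engaged by cytokines and by stress of the endoplasmic reticulum through IRE1. The relay itself runs by phosphorylation, which RNA does not show, so the values below concern the supply of transcripts and not kinase activity.

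Whole-gene RPKM of the gene targeted by Cre was higher in the libraries labelled Ad-Cre. Hspa5 stood at 438 ± 49.0 RPKM (reads scaled for gene length and library depth, mean ± SD, n = 4) in Ad-LacZ and at 1264 ± 231 RPKM in the libraries labelled Ad-Cre. With inhibitor it was at 410 ± 58.4 RPKM in Ad-LacZ and at 1415 ± 189 RPKM in the libraries labelled Ad-Cre. Its log2 fold change between the viruses was 1.53 without inhibitor (SE 0.17, limma adjusted p = 0.0015), where loss of the whole transcript would lower it. Cre removes only the floxed part of the gene, which whole-gene RPKM does not separate from the rest. These values are thus no measure of the knockdown. Every direction given below for Ad-Cre is that of the libraries so labelled. Depth, read from the steps between low values, was 7.7 to 25.5 M reads per library. The library of 7.7 M, Ad-Cre + JNK inhibitor from F2, was also the single library whose name carries the codes SE6165 and L008. The other names carry SE6161 and L005, and the labels do not say what these codes stand for. A value for 1 of the 10 genes in 1 library rested on between 174 and 4171 reads.

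Islet identity of the cultures was checked with marker genes. All 8 beta cell markers were above 1 RPKM in at least 1 library, with a summed level of 33140 to 84110 RPKM over the 16 libraries, and the summed level of 4 alpha cell markers was 10360 to 26530 RPKM. Of 5 acinar markers, Prss2, Cpa1 and Pnlip stayed below 0.1 RPKM in all libraries, and 1 was above 1 RPKM in at least 1 library. The summed level of the 5 was 1.80 to 10.8 RPKM over the 16 libraries, so acinar transcripts were low but not absent. Other cell types differed between preparations and treatments. The summed level of 5 stellate and fibroblast markers was 21.8 to 104 RPKM in F1 and M1 and 54.2 to 662 RPKM in M2 and F2. The summed level of 4 duct markers was 376 to 909 RPKM in Ad-LacZ + JNK inhibitor and 104 to 331 RPKM in the other groups together. The part of these cells in the results below was not tested.

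Promoter sequences are shown for the 3 members with an adjusted p under 0.05 in the main fits below, without or with the preparation as a block. Further members passed only under other settings, which are given below. Each run is the 250 bases before the first RefSeq start site of the gene, in build GRCm38.p6, on the strand of the gene and written 5′ to 3′. Capitals mark motifs found by letter matching on both strands. For Mapk8 (chr14:33447159-33447408, minus strand) they mark CCACG, the last part of the endoplasmic reticulum stress element, which also reads CGTGG on the other strand. For Mapk10 (chr5:103211335-103211584, minus strand) they mark the cyclic AMP response element TGACGTCA, a site type bound by ATF2 and c-Jun dimers. Mapk8ip3 (chr17:24936978-24937227, minus strand) held none of the searched motifs and is written in lower case throughout.
Mapk8: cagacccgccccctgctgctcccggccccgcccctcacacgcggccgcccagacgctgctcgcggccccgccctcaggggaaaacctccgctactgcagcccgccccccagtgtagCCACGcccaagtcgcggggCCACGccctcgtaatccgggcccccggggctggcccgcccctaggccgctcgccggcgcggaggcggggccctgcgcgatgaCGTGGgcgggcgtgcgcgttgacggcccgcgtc
Mapk10: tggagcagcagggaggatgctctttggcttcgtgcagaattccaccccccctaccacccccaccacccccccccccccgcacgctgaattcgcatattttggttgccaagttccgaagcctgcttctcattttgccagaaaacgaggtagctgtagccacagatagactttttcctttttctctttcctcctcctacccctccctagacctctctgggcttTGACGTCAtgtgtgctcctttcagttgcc
Mapk8ip3: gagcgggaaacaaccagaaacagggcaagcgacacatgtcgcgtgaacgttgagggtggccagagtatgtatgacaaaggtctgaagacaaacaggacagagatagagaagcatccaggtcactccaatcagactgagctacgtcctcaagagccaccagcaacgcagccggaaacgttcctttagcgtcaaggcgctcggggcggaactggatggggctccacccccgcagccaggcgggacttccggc
The Mapk8 window held 3 matches to CCACG, at 134, 115 and 33 bases before the start site, and 28.3% of all 32851 mouse promoter entries held at least 1. The element in Mapk10 lay 29 bases before the start site, and 1.55% of all promoter entries held one. The AP-1 site TGANTCA, present in 6.75% of all entries, and the ATF4 and CHOP element TGATGNAA, present in 3.45%, were in none of these 3 windows. None of the 4 motifs overlaps another in the printed windows. The Mapk8 window was also rich in CpG, with 36 such steps, above 97.4% of all entries, while Mapk10 held 7, close to the median of 6.0. Entries were at hand for 9 of the 10 members. By the GENCODE M21 annotation of GRCm38 the Mapk8 gene spans chr14:33377898-33447158 and the Mapk10 gene chr5:102907948-103211334, and no exon of either is shared with another gene. A match describes letters and is not a binding site.

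All 10 genes passed the low filter, above 1 RPKM in at least 4 libraries, in each of the comparisons. In Ad-LacZ, on the RPKM scale that divides by gene length, the order of mean levels was Mapk8ip1 at 26.5, Mapk8ip2 at 23.1, Map2k7 at 17.8, Map2k4 at 14.2, Mapk9 at 12.4, Map3k5 at 8.01, Mapk10 at 6.67, Mapk8ip3 at 5.18, Mapk8 at 3.30 and Map3k12 at 2.86 RPKM. Neighbours in this order often overlapped. The ranges of Mapk8ip1 and Mapk8ip2 overlapped, as did those of Mapk8ip2 and Map2k7, while the lowest Map2k7 value, 15.8 RPKM, was above the highest Map2k4 value, 15.4 RPKM. Mapk9, at 12.1 to 12.8 RPKM, lay below Map2k4, whose lowest value was 13.3 RPKM, and above Map3k5, whose highest was 8.72 RPKM. Below it, each neighbouring pair from Map3k5 to Map3k12 overlapped except Map3k5 and Mapk10, at 7.19 to 8.72 against 6.13 to 7.15 RPKM.

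**Figure D1:**
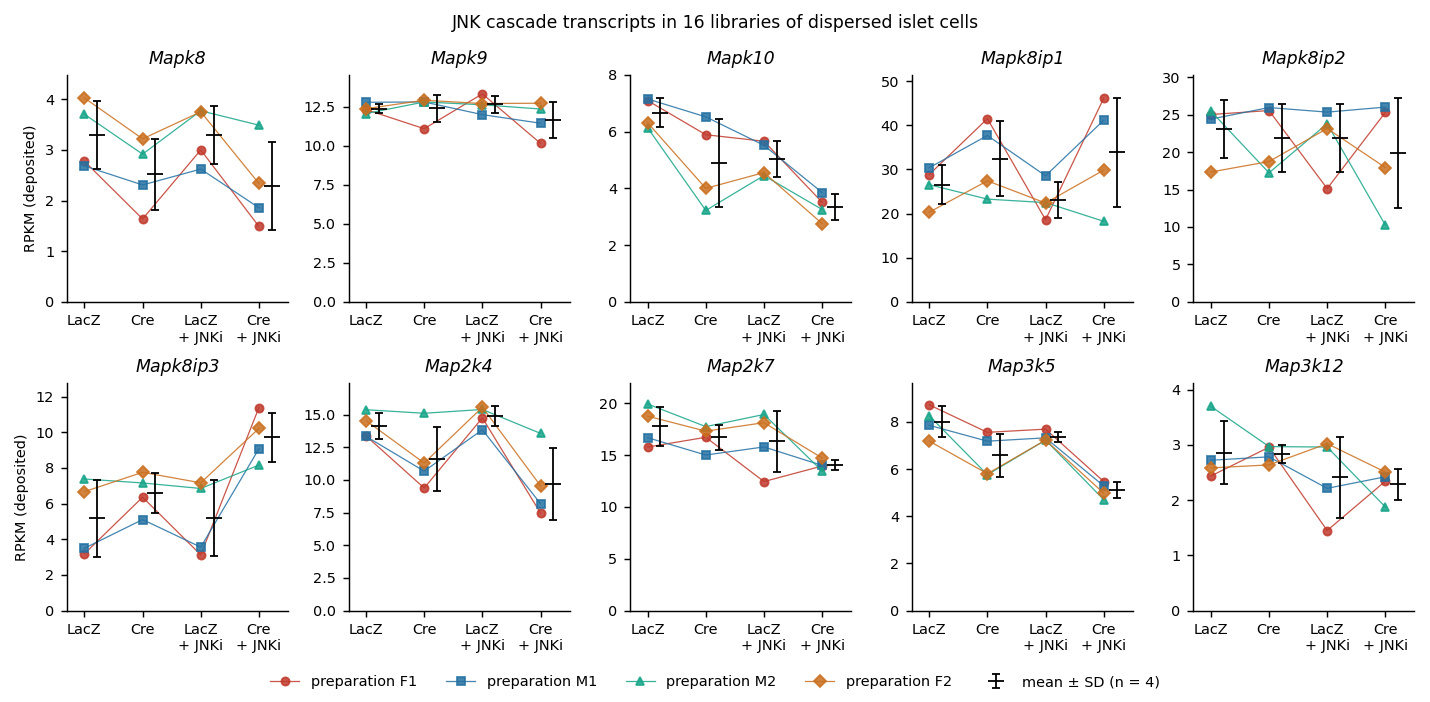
Deposited RPKM of each of the 10 genes (y axis, linear, from 0) in the 4 groups (x axis), with 1 coloured line per islet preparation and the mean ± SD of 4 libraries in black. Mapk8ip3 in Ad-Cre + JNK inhibitor sits at 8.16 to 11.4 RPKM, above every library of the other groups, while Mapk9 stays between 10.1 and 13.3 RPKM throughout.

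Among the JNK kinases, which phosphorylate c-Jun, the ubiquitous Mapk9 held the largest share of RPKM. In Ad-LacZ it made up 55.4% ± 0.860 of the summed RPKM of the 3 JNK genes, against 29.9% ± 2.26 for Mapk10, the neuronal and islet form, and 14.8% ± 2.99 for Mapk8 (SD, n = 4). In Ad-Cre + JNK inhibitor the shares were 67.4% ± 2.83, 19.6% ± 3.85 and 13.0% ± 3.77. The share of Mapk10 was 27.8 to 32% in Ad-LacZ, 17 to 31.7% in Ad-Cre, 21.4 to 27.4% in Ad-LacZ + JNK inhibitor and 15.5 to 23.2% in Ad-Cre + JNK inhibitor. The Mapk10 share in Ad-LacZ lay above both inhibitor groups without overlap and overlapped that of Ad-Cre. The Mapk9 share, 54.5 to 56.5% in Ad-LacZ, lay below the other 3 groups without overlap, at 59.2 to 67.6% in Ad-Cre, 59.6 to 60.6% in Ad-LacZ + JNK inhibitor and 64.7 to 71.4% in Ad-Cre + JNK inhibitor. A share also moves with the other JNK genes. Against Ad-LacZ, Mapk9 itself gave log2 fold changes of 0.01 in Ad-Cre and 0.05 in Ad-LacZ + JNK inhibitor. How often shares within other gene families separate between these groups was not tested. Summed JNK RPKM as deposited was 22.3 ± 0.376 in Ad-LacZ and 17.3 ± 1.65 in Ad-Cre + JNK inhibitor. This sum depends on how libraries are scaled against each other. The factors by which values are divided in scaling were 0.994 to 1.12 in Ad-LacZ and 0.871 to 0.970 in Ad-Cre + JNK inhibitor, so scaling narrows the difference. The shares do not depend on such scaling, but they do depend on gene length. GENCODE exonic length was 6784 bases for Mapk9, 11130 for Mapk10 and 11444 for Mapk8. Median reads over the 16 libraries, derived with these lengths, were 1854, 1197 and 718.5 in that order.

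**Figure D2:**
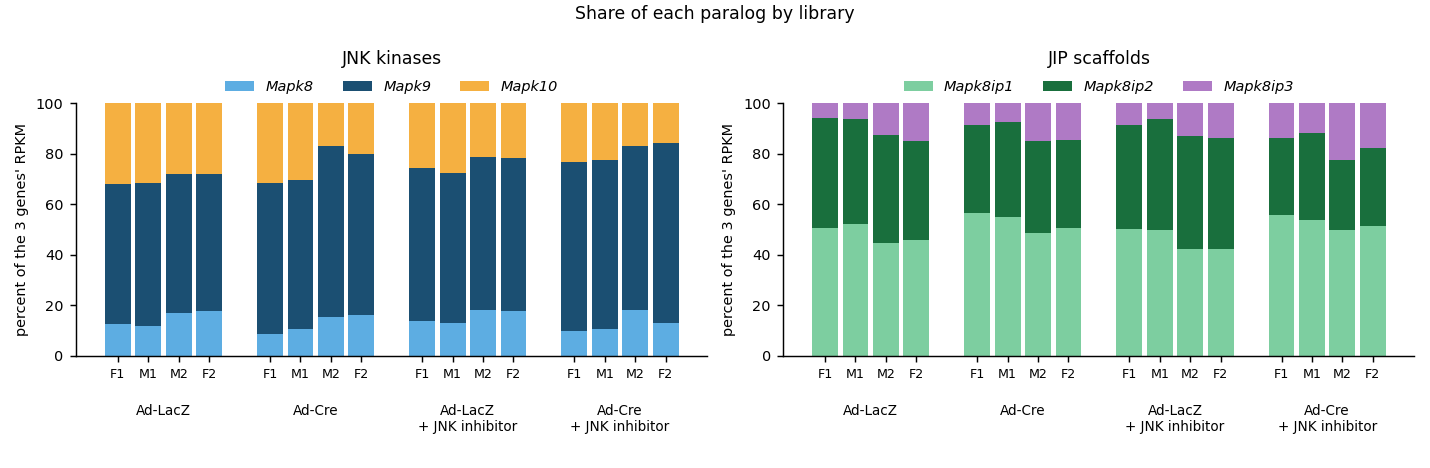
Percent of the summed RPKM of 3 paralogs (y axis, linear, from 0) contributed by each gene in each of the 16 libraries (x axis, by preparation within group), for the JNK kinases on the left and the JIP scaffolds on the right. Mapk9 is the largest JNK share in every library, from 54.5 to 71.4%, and Mapk8ip3 is the smallest JIP share in every library, from 5.58 to 22.3%.

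The first comparison asked what the virus labelled as the knockdown did without inhibitor. None of the 10 genes changed at an adjusted p under 0.05 in limma, where 19.3% of 11590 genes did, and 1 of them had an unadjusted p under 0.05. With the preparation as a block, which compares cultures of the same islets, Mapk8 and Mapk10 fell, 2 of 10 members, where 34.5% of all genes passed. By the criteria of the study, an unadjusted p under 0.05 with a fold change above 1.5, the members counted 0 and all genes 10.2%. No member had groups of deposited values without overlap, which 27.7% of all genes had. The median log2 fold change was -0.07 over the members and 0.01 over all genes.

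Mapk8 encodes JNK1, one of the widely expressed JNKs. Its level in F1, M1, M2 and F2 was 2.78, 2.68, 3.70 and 4.02 RPKM in Ad-LacZ and 1.64, 2.31, 2.92 and 3.22 RPKM in Ad-Cre. It was lower in 4 of 4 preparations, yet the groups overlapped because M2 and F2 were higher than F1 and M1 under both viruses. The log2 fold change was -0.29, with an adjusted p of 0.205 without the block (SE 0.15) and of 0.0444 with it (SE 0.09). That call did not hold when any 1 preparation was left out, with blocked adjusted p-values of 0.0706 to 0.146. Those fits also held fewer libraries, so they do not show which preparations the call rested on. The exact two-sided permutation p on RPKM was 0.2 over all 8 libraries, where 0.0286 is the smallest possible, and 0.125 within preparations, the smallest possible there.

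Mapk10 encodes JNK3, known for its place in neurons and islets. Its level in F1, M1, M2 and F2 was 7.09, 7.15, 6.13 and 6.31 RPKM in Ad-LacZ and 5.89, 6.52, 3.22 and 4.00 RPKM in Ad-Cre. All 4 preparations were lower, by 0.73 and 0.59 on the log2 scale in M2 and F2 and by 0.17 and 0.10 in F1 and M1. The groups overlapped through the M1 library of Ad-Cre. The log2 fold change was -0.40, with an adjusted p of 0.218 without the block (SE 0.21) and of 0.0413 with it (SE 0.12). With the block, the adjusted p was 0.124 without M2, 0.151 without F2, 0.0525 without F1 and 0.0342 without M1. M2 and F2 were also the preparations with the higher stellate and fibroblast marker levels, with 662 and 175 RPKM in Ad-Cre, and the beta cell markers summed to 33340 and 47150 RPKM there against 84110 and 70770 RPKM in F1 and M1. Their part in the Mapk10 values was not tested.

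Mapk9, which encodes JNK2, gave a log2 fold change of 0.01 with a 95% interval of -0.17 to 0.20. Its levels were 12.1 to 12.8 RPKM in Ad-LacZ and 11.1 to 12.9 RPKM in Ad-Cre. In the MAP2 kinase tier, Map2k4 was 13.4, 13.3, 15.4 and 14.5 RPKM in F1, M1, M2 and F2 of Ad-LacZ and 9.38, 10.7, 15.1 and 11.3 RPKM in Ad-Cre. The M2 culture stood at nearly the same level under both viruses, and the other 3 were lower in Ad-Cre. Its log2 fold change of -0.27 had an adjusted p of 0.112, or 0.066 with the block. Map2k7, the kinase dedicated to JNK, gave -0.07 (95% interval -0.26 to 0.13). In the MAP3 kinase tier, Map3k5, which answers oxidative stress, was lower in 4 of 4 preparations with a log2 fold change of -0.24 and an adjusted p of 0.242, or 0.0763 with the block. Map3k12 gave 0.02 (95% interval -0.22 to 0.25).

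The JIP scaffolds gave wider intervals. Mapk8ip1, the islet-enriched scaffold, was 28.8, 30.4, 26.5 and 20.3 RPKM in F1, M1, M2 and F2 of Ad-LacZ and 41.5, 37.7, 23.3 and 27.4 RPKM in Ad-Cre. It was higher in 3 of 4 preparations and lower in M2, with a log2 fold change of 0.28 and an adjusted p of 0.435, or 0.12 with the block. Mapk8ip2, its close relative, gave -0.06 (95% interval -0.51 to 0.38). Mapk8ip3, a scaffold that links JNK to kinesin-driven transport, was 3.19, 3.49, 7.38 and 6.67 RPKM in Ad-LacZ and 6.36, 5.10, 7.15 and 7.75 RPKM in Ad-Cre. It was higher in F1 and M1 by 0.88 and 0.46 on the log2 scale, and differed by -0.02 and 0.14 in M2 and F2, where it was already near 7 RPKM under Ad-LacZ. Its adjusted p was 0.271, or 0.084 with the block.

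**Figure D3:**
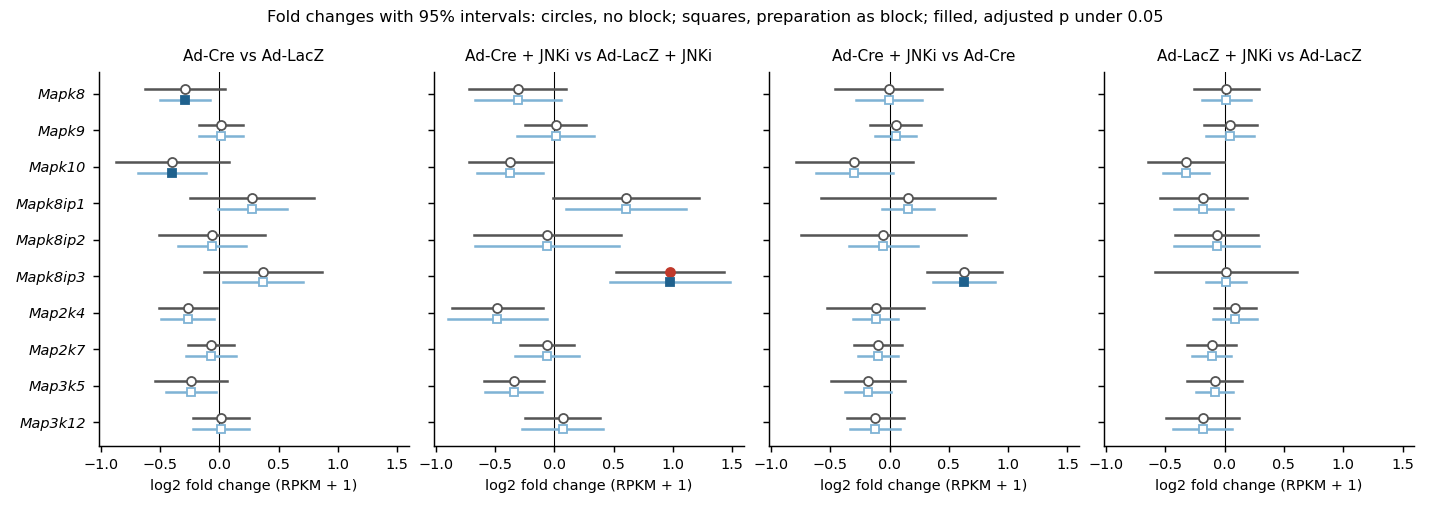
Log2 fold changes on the log2(scaled RPKM + 1) scale (x axis) of the 10 genes in 4 comparisons, each with its 95% interval from limma without a block (circles) and with preparation as a block (squares), filled where the adjusted p over all genes is under 0.05. Mapk8ip3 under inhibitor, at 0.97, is the single filled circle, and filled squares also mark Mapk8 at -0.29, Mapk10 at -0.40 and Mapk8ip3 at 0.63.

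Under the inhibitor the viruses were compared again, which asks how the libraries labelled Ad-Cre differed when JNK was blocked throughout. Mapk8ip3 rose, as the single member of 10 at an adjusted p under 0.05, and no member fell. Of all 11598 genes, 23.0% passed this test, and with the block 24.8% of genes and again 1 member. The fold criterion of 1.5 was met by 1 member and by 17.8% of genes. Deposited values did not overlap for 4 members, Mapk8ip3 above and Mapk10, Map2k4 and Map3k5 below, against 29.7% of genes. With RPKM left as deposited, the median log2 fold change of all genes was -0.14, below the -0.03 of the scaled values. On the scaled values used in the fits, 2 members, Mapk8ip3 and Map3k5, had groups without overlap, against 27.7% of genes. The median log2 fold change was -0.06 over the members and -0.03 over all genes.

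Mapk8ip3 in F1, M1, M2 and F2 was 3.13, 3.56, 6.85 and 7.16 RPKM in Ad-LacZ + JNK inhibitor and 11.4, 9.07, 8.16 and 10.2 RPKM in Ad-Cre + JNK inhibitor. The lowest Ad-Cre library was above the highest Ad-LacZ library. The log2 fold change was 0.97 (SE 0.20, 95% interval 0.52 to 1.43, limma adjusted p = 0.00978), and the adjusted p was 0.0225 with the block. Per preparation it was 1.60 and 1.24 in F1 and M1 and 0.46 and 0.60 in M2 and F2, so 4 of 4 were higher. Without F1 the log2 fold change was 0.77 and the adjusted p 0.0534, and without M1 they were 0.88 and 0.0792. With the block, the adjusted p was 0.126 without M1, 0.0841 without F2 and 0.0257 without F1. The exact two-sided permutation p on RPKM was 0.0286, the smallest that reassigning all 8 libraries allows, and 0.125 when values were exchanged within preparations, again the smallest possible. Without F2, whose Ad-Cre + JNK inhibitor library was the shallow one, the fit without the block gave 1.09 with an adjusted p of 0.0444.

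Part of the Mapk8ip3 exons lies on other genes. In the GENCODE M21 annotation of GRCm38 the gene spans chr17:24892153-24936977 on the minus strand, and 20.4% of its exonic length is shared with Eme2 on the same strand and with Mrps34 and Nme3 on the opposite strand. Whether the counting used strand is not given in the sources used here, so reads on the shared part cannot be told apart. Under inhibitor Eme2 went from 3.00 ± 0.872 RPKM in Ad-LacZ to 1.82 ± 0.396 RPKM in Ad-Cre, with a log2 fold change of -0.39. Mrps34 gave 0.33 (SE 0.25) and Nme3 gave -0.16 (SE 0.27), and none of these 3 neighbours passed the adjusted threshold. The summed level of 6 Schwann cell and neuron markers was 35 to 61.2 RPKM in Ad-Cre + JNK inhibitor and 36.2 to 77.9 RPKM in Ad-LacZ + JNK inhibitor, and its part in the Mapk8ip3 values was not tested.

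The remaining members under inhibitor were as follows. Map2k4 was 14.8, 13.8, 15.4 and 15.6 RPKM in F1, M1, M2 and F2 of Ad-LacZ + JNK inhibitor and 7.46, 8.18, 13.6 and 9.55 RPKM in Ad-Cre + JNK inhibitor. On deposited RPKM all 4 preparations were lower in Ad-Cre. On the scaled log2 values M2 stood apart at 0.08, while F1, M1 and F2 gave -0.91, -0.60 and -0.50. Over all 4 the log2 fold change was -0.48 (SE 0.17, adjusted p = 0.0718), and without M2 it was -0.68 with an adjusted p of 0.00733. Leaving RPKM as deposited gave an adjusted p of 0.0291 for Map2k4, and fitting all 16 libraries together gave 0.0165.

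Map3k5 varied little between preparations. It was 7.69, 7.32, 7.23 and 7.23 RPKM in Ad-LacZ + JNK inhibitor and 5.47, 5.28, 4.70 and 4.98 RPKM in Ad-Cre + JNK inhibitor, lower in 4 of 4 with no overlap. The log2 fold change was -0.34 (SE 0.11, adjusted p = 0.0573, or 0.0509 with the block), and deposited RPKM gave 0.00893. Mapk10 was 4.45 to 5.66 RPKM and 2.76 to 3.85 RPKM in the same order, a log2 fold change of -0.37 (adjusted p = 0.112, or 0.0585 with the block). Leaving RPKM as deposited gave 0.023 for Mapk10.

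Mapk8 gave -0.31 (adjusted p = 0.25), and without M2 it gave -0.46 with an adjusted p of 0.045. Mapk8ip1 was 18.6, 28.5, 22.5 and 22.4 RPKM in Ad-LacZ + JNK inhibitor and 46.1, 41.1, 18.2 and 29.8 RPKM in Ad-Cre + JNK inhibitor, the M2 culture again being the exception. Its log2 fold change was 0.60 (SE 0.27, adjusted p = 0.141), and 0.80 without M2 (adjusted p = 0.0241). Mapk9, Map2k7, Map3k12 and Mapk8ip2 gave log2 fold changes of 0.01, -0.06, 0.07 and -0.06. In M2, Ad-Cre + JNK inhibitor also had the highest summed levels of the alpha cell markers, 26530 RPKM, and of 3 delta cell markers, 6831 RPKM, and their part in its values was not tested.

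The inhibitor was next compared with vehicle in the libraries labelled Ad-Cre. No gene of 11503 passed an adjusted p under 0.05 in limma without the block (0%), while 1091 genes and 1 member had an unadjusted p under 0.05. With the block 6.00% of genes passed, and 1 member, Mapk8ip3, rose. The criteria of the study for the inhibitor, an unadjusted p under 0.05 and a fold change above 1.2, were met by Mapk8ip3 and by 8.81% of genes. Deposited values did not overlap for 4 members, Mapk8ip3 above and Map2k7, Map3k5 and Map3k12 below, against 11.5% of genes. Scaling left Mapk8ip3 alone, 1 member against 7% of genes, and the median log2 fold change of all genes was -0.14 with RPKM as deposited. On the scaled values it was -0.07 over members and -0.02 over all genes.

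From Ad-Cre to Ad-Cre + JNK inhibitor, Mapk8ip3 went from 6.36, 5.10, 7.15 and 7.75 to 11.4, 9.07, 8.16 and 10.2 RPKM in F1, M1, M2 and F2. The groups did not overlap and 4 of 4 preparations were higher. The log2 fold change was 0.63 (SE 0.14, 95% interval 0.31 to 0.95), with an adjusted p of 0.211 without the block and of 0.0322 with it. With the block, the adjusted p was 0.122 without F1, 0.166 without M1, 0.148 without F2 and 0.00355 without M2. The overlapping genes gave log2 fold changes of -0.03 for Eme2, 0.18 for Mrps34 and 0.01 for Nme3. The summed Schwann cell and neuron markers were 35 to 61.2 RPKM with inhibitor and 51.3 to 85.2 RPKM without it, and their part in the Mapk8ip3 values was not tested.

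No other member passed with or without the block. Mapk10 was 5.89, 6.52, 3.22 and 4.00 RPKM in F1, M1, M2 and F2 without inhibitor and 3.51, 3.85, 3.25 and 2.76 RPKM with it. Its log2 fold change was -0.30 (SE 0.22, adjusted p = 0.739), and the M2 preparation, already lowest without inhibitor, was the one that was not lower on the scaled values. Map3k5 gave -0.18 and was lower in 4 of 4 preparations, and Map3k12, Map2k4 and Map2k7 gave -0.12, -0.12 and -0.10. For Map2k7 the annotation places 35.2% of the exonic length on Gm49320, and for Map3k12 19.3% on Pcbp2 and Gm10337. The inhibitor targets Mapk8 and Mapk9 gave -0.01 (95% interval -0.46 to 0.44) and 0.05 (95% interval -0.16 to 0.27). Mapk8ip1 gave 0.16 and was higher in 3 of 4 preparations. Mapk8ip2 gave -0.05, higher in 3 of 4 preparations on the scaled values and in 1 of 4 on deposited RPKM.

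In Ad-LacZ cultures, where the inhibitor acts on control cells, no member passed the adjusted threshold. Of 11657 genes, 0.206% passed, and 0.360% with the block. The criteria of the study were met by 1 member, Mapk10, and by 4.80% of genes. Mapk10 was also the 1 member whose deposited values did not overlap, against 4.84% of genes, and on scaled values no member was without overlap, against 4.7% of genes. Its level went from 7.09, 7.15, 6.13 and 6.31 RPKM in Ad-LacZ to 5.66, 5.52, 4.45 and 4.56 RPKM in Ad-LacZ + JNK inhibitor. Each of the 4 preparations was lower, with a log2 fold change of -0.33 (SE 0.14, unadjusted p = 0.0454, limma adjusted p = 0.768, or 0.187 with the block). The exact permutation p on RPKM was 0.0286, or 0.125 within preparations. The summed beta cell markers were also lower with inhibitor in 4 of 4 preparations, at 83750, 77880, 51230 and 59740 RPKM in F1, M1, M2 and F2 of Ad-LacZ and 45000, 60150, 35160 and 48090 RPKM with it. The summed stellate and fibroblast, duct and macrophage markers were higher with inhibitor in 4 of 4, and the part of these cells in the Mapk10 values was not tested. Mapk8ip3 gave 0.01 (95% interval -0.59 to 0.61), or -0.15 to 0.18 with the block, and Mapk8, Mapk9 and Map2k4 gave 0.01, 0.05 and 0.09. The largest of the other differences were those of Map3k12 and Mapk8ip1, at -0.19 and -0.18, and the median over members was -0.08 beside 0.00 over all genes.

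The interaction of virus and inhibitor, fitted over all 16 libraries and 12274 genes, asked whether the inhibitor acted differently under the viruses. It passed for 0.0163% of genes and, with the block, for 0% of genes, and for no member either way, while 427 genes and 0 members had an unadjusted p under 0.05 without the block. Mapk8ip3 had the largest estimate among members, 0.63 (SE 0.31, unadjusted p = 0.0633, adjusted p = 1.00), and with the block its unadjusted p was 0.0343 and its adjusted p 0.376. The 95% interval without the block ran from -0.04 to 1.30. Mapk8ip1 gave 0.34 (SE 0.40). So the passing values of Mapk8ip3 in the libraries labelled Ad-Cre and its 0.01 under Ad-LacZ are not shown to differ from each other at the adjusted threshold.

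The preparations also differed from each other. Over the 16 libraries Mapk8ip3 spanned 3.64-fold and Mapk9 1.31-fold, with the other 8 members between 1.60-fold and 2.70-fold. Mapk8ip3 in vehicle and inhibitor cultures of Ad-LacZ was 3.13 to 3.56 RPKM in F1 and M1 and 6.67 to 7.38 RPKM in M2 and F2. Mapk8 averaged 2.22 and 2.37 RPKM over the 4 cultures of F1 and M1 and 3.47 and 3.33 RPKM over those of M2 and F2. Mapk10 and Mapk8ip1 lay the other way, with means of 5.54 and 5.76 RPKM against 4.27 and 4.41 RPKM for Mapk10, and of 33.8 and 34.4 RPKM against 22.6 and 25.0 RPKM for Mapk8ip1. Within each group the summed stellate and fibroblast markers were higher in M2 and F2 than in F1 and M1. The summed beta cell markers were lower in M2 and F2 in each group but Ad-LacZ + JNK inhibitor, where F1 stood at 45000 and F2 at 48090 RPKM. The part of these cells was not tested, and the names of all libraries but the shallow one carry the same codes, SE6161 and L005.

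Other genes of the cascade were taken from lists written by function. Between the viruses, 19.3% of all genes passed without inhibitor and 23.0% under it, or 34.5% and 24.8% with the block. No test set the counts of these lists against those shares. Of 16 further MAP3 and TAO kinases, 13 were tested between the viruses without inhibitor, of which 1 rose and 1 fell, with a median log2 fold change of -0.09. Map3k21, a mixed-lineage kinase, rose by 0.33 and Map3k1, the kinase MEKK1, fell by 0.33 on the log2 scale (limma adjusted p = 0.0434 and 0.0369). With the block Map3k4 and Taok3 fell as well, at -0.39 and -0.45. Under inhibitor Map3k1 gave -0.67, Map3k2 -0.50 and Map3k21 0.54 among 13 tested, so 1 rose and 2 fell, and Map3k4 and Taok1 fell with the block.

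Of 7 MAP4 kinases, which act above the MAP3 tier, 6 were tested. Without inhibitor 1 fell, and under it 1 rose and 1 fell, where 19.3% and 23.0% of all genes passed. Tnik fell in both comparisons of the viruses, by 0.61 without inhibitor (adjusted p = 0.0163) and by 0.82 with it (adjusted p = 0.00119). Its level was 2.92 ± 0.671 RPKM in Ad-LacZ, 1.53 ± 0.256 in Ad-Cre, 2.71 ± 0.456 in Ad-LacZ + JNK inhibitor and 0.972 ± 0.130 RPKM in Ad-Cre + JNK inhibitor. Mink1, its relative, rose under inhibitor by 0.35 (adjusted p = 0.0348, or 0.0655 with the block).

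Of 14 other scaffolds and adaptors, all tested, 2 rose and none fell between the viruses without inhibitor, where 19.3% of all genes passed. Txn1, the thioredoxin that binds and restrains ASK1, rose by 0.56 (adjusted p = 0.0141), and Daxx, an activator of ASK1, rose by 0.43 (adjusted p = 0.0262). Spag9, which encodes JIP4 and is a close relative of Mapk8ip3, was 17 ± 2.39 RPKM in Ad-LacZ and 13.0 ± 2.56 RPKM in Ad-Cre, with a log2 fold change of -0.37 (adjusted p = 0.0671, or 0.0161 with the block). Tab2 and Tab3, partners of the kinase TAK1, fell and Flna rose with the block only. Under inhibitor, where Mapk8ip3 rose, Spag9 fell by 0.47 and Sh3rf1, the scaffold POSH, by 0.32, while Txn1 rose by 0.59 (adjusted p = 0.0401, 0.0369 and 0.031), and with the block none of these passed.

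The parallel p38 and ERK cascades were covered by 12 genes. Of the 9 tested without inhibitor, 2 rose and 1 fell, where 19.3% of all genes passed. The p38 activators Map2k3 and Map2k6 went in opposite directions, at 0.61 and -0.65 (adjusted p = 0.00489 and 0.0117), and the ERK activator Map2k1 rose by 0.48 (adjusted p = 0.0219). Map2k6 went from 1.92 ± 0.425 to 0.838 ± 0.104 RPKM and Map2k3 from 10.8 ± 1.63 to 16.8 ± 1.67 RPKM. Under inhibitor Map2k3 and Map2k6 gave 0.65 and -0.65 (adjusted p = 0.0238 and 0.0207, or 0.0518 and 0.0378 with the block). Between inhibitor and vehicle, none of the 4 lists held a gene at an adjusted p under 0.05 without the block. With it the p38 gene Mapk13 rose in Ad-Cre by 0.78 (adjusted p = 0.0424), where 6.00% of all genes passed.

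**Figure D4:**
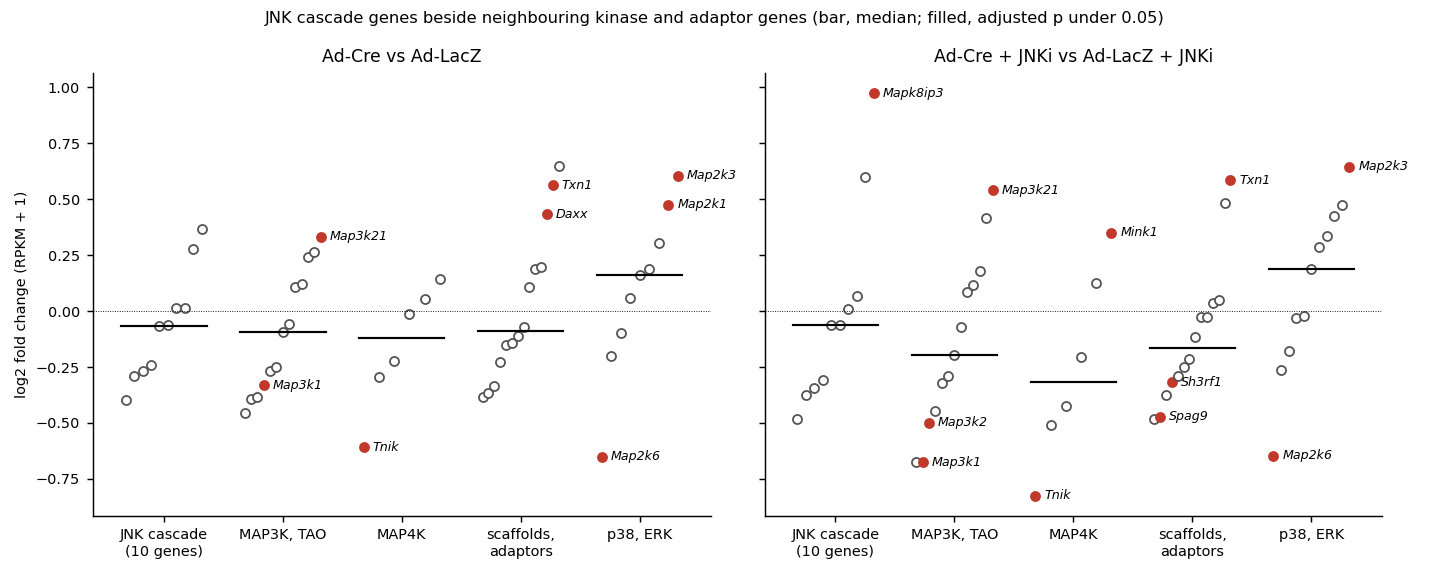
Log2 fold change on the log2(scaled RPKM + 1) scale (y axis) between the libraries labelled Ad-Cre and Ad-LacZ, without inhibitor on the left and with it on the right, for the 10 genes and 4 lists of related genes (x axis), each point 1 gene, with a bar at the median and filled points at an adjusted p under 0.05. Medians without inhibitor run from -0.12 for the MAP4 kinases to 0.16 for the p38 and ERK genes, with -0.07 for the 10 genes.

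Transcripts of some JNK substrates were read as well, which does not show the phosphorylation of their proteins. Jun, itself a gene that its own protein and AP-1 regulate, was 16.7, 15.7, 28.6 and 22.2 RPKM in F1, M1, M2 and F2 of Ad-LacZ and 17.3, 16.6, 31.2 and 22.5 RPKM in Ad-Cre. With inhibitor it was 6.02, 6.12, 14.1 and 12.5 RPKM in Ad-LacZ and 8.17, 7.18, 13.1 and 9.87 RPKM in Ad-Cre. Every preparation was lower with inhibitor and neither pair of groups overlapped. Of all genes, 11.5% had groups without overlap in Ad-Cre and 4.84% in Ad-LacZ. The log2 fold change was -0.97 in Ad-Cre (adjusted p = 0.211, or 0.0105 with the block) and -1.06 in Ad-LacZ (adjusted p = 0.234, or 0.0365 with the block). Jund fell with the block in Ad-Cre at -0.87 (adjusted p = 0.0393). Between the viruses Atf2 fell and Trp53 rose without inhibitor, at -0.62 and 0.48 (adjusted p = 0.00477 and 0.026). Under inhibitor Atf2 fell at -0.68 and Trp53 rose at 0.47 (adjusted p = 0.0176 and 0.0479, or 0.0446 and 0.0664 with the block). Elk1 passed in neither comparison.

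Genes with the most similar pattern to 4 of the members were read over the 16 libraries among 12274 genes, as a description with no test, since the libraries share preparations and groups. Mapk8 was closest to the RNA-binding gene Rnpc3 (Pearson r = 0.986 on log2 values) and Arglu1 (r = 0.967). Mapk10 was closest to Efcab14 (r = 0.982) and Lrrc1 (r = 0.958), and Mapk8ip1 to Mast3 (r = 0.986) and Kctd2 (r = 0.982). Mapk9, with its narrow range, reached lower values, 0.894 with Nrd1 and 0.875 with Scoc.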

How the data were processed

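PolyA libraries from 16 cultures of dispersed islet cells were sequenced by the authors as paired-end reads, which they aligned to the mouse genome and counted per gene. The values the authors deposited are RPKM, and the labels name the build GRCm38. The annotation, the gene lengths and any use of strand are not given in the sources used here. Columns were assigned through the library names in the labels, and 3 further columns that no label names were not used. Of 25105 genes, 4262 were 0 in all libraries.

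For each comparison, genes above 1 RPKM in at least 4 of its 8 libraries were scaled by unweighted TMM factors (trim of 30% of ratios and 5% of levels), and log2(scaled RPKM + 1) went into a linear model per gene (R 4.3.3, limma 3.58.1) whose variances were moderated by eBayes with a mean-variance trend, and p-values were adjusted by Benjamini-Hochberg over all genes tested. Fold changes are on that scale, which understates changes of low genes. The interaction used 16 libraries. Single genes had an exact two-sided permutation test over all libraries, which ignores the pairing, and one within preparations. The fits were tested on simulated data drawn without differences between preparations, which cannot show how the fits behave with paired libraries.

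Depth and reads per gene were read from the steps of low RPKM values times GENCODE exonic length: 91.7 to 93.3% of low values were whole within 0.03 reads. Counting error was not separated from the spread between preparations. The preparations pair the libraries, since the study cultured the same islets in parallel under each treatment. As a check, residuals of libraries from the same preparation correlated at 0.126 to 0.824 over the 4 comparisons. The lowest values were 0.126 and 0.154 in the comparisons that hold Ad-LacZ + JNK inhibitor, and 0.484 and 0.641 in the others. Between different preparations the mean was -0.228 to -0.127. Residuals are taken from group means, so these means follow largely from the values within preparations. P-values without the block set a difference against the spread between libraries of a group, which includes that between preparations. Those with the block set it against how far the differences within preparations vary. Both rest on these 4 preparations.

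The 10 genes were given by function. The members and all gene lists were chosen with earlier results of these data known. From the lists, genes with an adjusted p under 0.05, without or with the block, are named, at most the 4 with the smallest p for each list and comparison. Genes overlapping members were taken from the annotation. Alternatives were another pseudocount, other filters, no scaling, quantile normalization, the block, no trend, a joint fit of all libraries, and leaving out each preparation. Promoters were taken from RefSeq, and tables and figures were made with Python 3.11.15.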

Additional observations from a re-analysis of the deposited data

Results flagged for a closer look

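Among the 40 sets of 4 libraries, 1 for each gene and group, 2 held a library far from the others by Dixon's criterion for 4 samples, and chance marks about 1 set in 20. Mapk9 in Ad-Cre stood at 11.08 RPKM in F1, where the other 3 preparations were at 12.8 to 12.9 RPKM. Mapk8ip2 in Ad-LacZ stood at 17.34 RPKM in F2, where the other 3 were at 24.4 to 25.5 RPKM.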

How the results depend on the processing

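Of 502 fold changes of single members recomputed under other settings, 464 kept their direction and side of the threshold, 10 passed it anew, 2 lost it and 26 changed sign. With the preparation as a block (pairing), genes passing went to 3997 for Ad-Cre against Ad-LacZ, 690 for inhibitor in Ad-Cre, 42 for inhibitor in Ad-LacZ and 0 for the interaction, and members passing to 2 and 1 in the first pair of comparisons; it changed no other member call. Between the viruses without inhibitor 2237 genes passed, 1490 with no filter, and 373 to 1070 when a preparation was left out (796 without F1, 700 without M1, 1070 without M2, 373 without F2). Under inhibitor 2666 genes passed, 574 to 3568 when a preparation was left out (1625 without F1, 608 without M1, 574 without F2). Members passing there were 4 with RPKM as deposited, 2 with all 16 libraries in one fit, and 0 to 4 when a preparation was left out: 0 without F1 or M1 and 4 without M2 (Mapk8, Mapk8ip1, Mapk8ip3, Map2k4). For inhibitor in Ad-Cre 0 genes passed, 1 with quantile normalization and 76 with all 16 libraries. For inhibitor in Ad-LacZ 24 passed, 4 with no filter, 7 with RPKM as deposited, 9 with all libraries and 1 to 2 when a preparation was left out. For the interaction 2 passed, 1 with quantile normalization or without trend, and 0 with the pseudocount of 0.1, no filter, the filter at 0.1 RPKM, RPKM as deposited or any preparation left out. With RPKM as deposited the median of all genes in the interaction was -0.12, beside -0.0049 on scaled values. The cause of these moves was not tested, beyond the fewer libraries in some.

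The sign changes, as log2 fold changes, were these. For inhibitor in Ad-Cre, Mapk8 was 0.0089 with the filter at 0.1 RPKM, 0.063 with quantile normalization, 0.0040 with all libraries and -0.14 to 0.070 when a preparation was left out, Mapk8ip2 was -0.11 to 0.078 when one was left out, and Mapk9 was -0.084 with RPKM as deposited. Between the viruses under inhibitor, RPKM as deposited gave -0.030 for Map3k12 and -0.11 for Mapk9, and leaving a preparation out gave -0.057 to 0.17 for Map3k12, -0.31 to 0.20 for Mapk8ip2 and -0.070 to 0.14 for Mapk9. Without inhibitor Mapk9 was -0.0056 with no filter, and leaving a preparation out gave -0.061 to 0.092 for Map3k12, -0.11 to 0.084 for Mapk8ip2 and -0.016 to 0.051 for Mapk9. For inhibitor in Ad-LacZ, Mapk8 was -0.00035 with RPKM as deposited, -0.0029 with quantile normalization and -0.045 to 0.074 when a preparation was left out, and Mapk8ip3 was -0.00027 with the filter at 0.1 RPKM, -0.0015 with RPKM as deposited and -0.013 to 0.046 when one was left out. Leaving one out there gave -0.19 to 0.098 for Mapk8ip2 and -0.016 to 0.092 for Mapk9.

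With 4 preparations a group, a single gene cannot go below an exact p of 0.0286 over all libraries, or 0.125 within preparations. Between the viruses under inhibitor, the adjusted p of Mapk8ip3 ran from 0.00368 to 0.0792 when 1 choice was changed at a time. The blocked fits that left out 1 preparation at a time were chosen after seeing the data.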
